A study of Homo sapiens with 4 samples.

Results

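ATAC-seq, an assay that tags accessible DNA with adapters carried by the Tn5 transposase, was used to describe 10 loci of androgen-activated genes: NDRG1, SLC45A3, PMEPA1, ZBTB16, CAMKK2, TRPM8, STEAP4, UAP1, ABCC4 and FOLH1. A listed region (peak) was a member when its summit lay in a fixed hg19 window around one of these genes. The windows add up to 1.82 Mb and held 179 of the 163735 regions listed after GSK2879552 and 214 of the 194551 regions listed after vehicle. The cells were LNCaP, an established androgen-sensitive human prostate cancer line, kept in medium with 10% FBS. GSK2879552, which inhibits LSD1 (KDM1A), a demethylase of histones, was given at 50 µM for 4 hours in medium with 5% CSS, and the other cells received vehicle; the protocol text with these values is the same for all samples. Each condition has 2 sequencing lanes labelled as technical replicates and 1 peak list for both lanes, so there is 1 library per condition. No test between conditions was possible, and every interval below covers counting error only.

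The androgen receptor is a hormone-bound transcription factor that acts mostly at enhancers away from gene starts, together with the pioneer factor FOXA1. LSD1 removes methyl groups from lysines of histone H3 and works in complexes with corepressors, and it is also known as a partner of the androgen receptor. The genes are known androgen-activated genes in prostate cells, although FOLH1 is also known to go up when androgen signalling is blocked. Neither an androgen response nor any transcript was measured here, so the label of the gene set was not checked by these data. No gene positions in hg19 were used, so regions were not assigned to genes. In the GRCh38.p14 annotation SLC45A3 is next to NUCKS1, CAMKK2 lies between P2RX4 and ANAPC5, and UAP1 is next to DDR2, so a region in a window may belong to a neighbour.

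Start sites of 7 of the 10 genes, with 17 promoters of 300 bases, were found in a RefSeq table of build GRCh38.p14; NDRG1, ZBTB16 and FOLH1 were not matched. The 4 promoters printed here are the starts of PMEPA1 and TRPM8 that hold the hexamer AGAACA, the core letters of one arm of the androgen response element, and the first of the 3 listed starts of UAP1, whose locus held the summit with the most tags. They run 5′ to 3′ from 250 bases before to 50 bases after a start, and capitals mark AGAACA and GGGCGG (the GC box bound by Sp1-type factors), each on either strand, so that the reverse strand reads TGTTCT and CCGCCC. PMEPA1 start 1 is chr20:57711423-57711722 and start 2 is chr20:57710528-57710827, both on the minus strand. TRPM8 start 6 is chr2:233979899-233980198 and UAP1 start 1 is chr1:162561281-162561580, both on the plus strand.
PMEPA1 start 1: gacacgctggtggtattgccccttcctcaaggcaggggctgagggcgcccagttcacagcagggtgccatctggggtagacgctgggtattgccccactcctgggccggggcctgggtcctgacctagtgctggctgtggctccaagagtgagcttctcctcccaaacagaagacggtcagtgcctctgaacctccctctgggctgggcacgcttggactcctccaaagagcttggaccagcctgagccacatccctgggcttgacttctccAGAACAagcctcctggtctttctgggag
PMEPA1 start 2: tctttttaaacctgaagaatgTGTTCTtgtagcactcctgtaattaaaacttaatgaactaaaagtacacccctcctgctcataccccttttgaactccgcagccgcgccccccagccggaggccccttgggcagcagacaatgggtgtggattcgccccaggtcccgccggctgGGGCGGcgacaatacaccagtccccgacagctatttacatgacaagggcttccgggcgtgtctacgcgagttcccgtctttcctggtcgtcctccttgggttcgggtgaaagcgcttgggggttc
TRPM8 start 6: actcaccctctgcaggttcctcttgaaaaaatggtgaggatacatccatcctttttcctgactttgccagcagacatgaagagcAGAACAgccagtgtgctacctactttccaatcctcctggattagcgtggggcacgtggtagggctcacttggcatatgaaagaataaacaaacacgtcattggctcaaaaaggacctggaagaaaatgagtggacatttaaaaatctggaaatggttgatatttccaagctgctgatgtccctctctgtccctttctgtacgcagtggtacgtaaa
UAP1 start 1: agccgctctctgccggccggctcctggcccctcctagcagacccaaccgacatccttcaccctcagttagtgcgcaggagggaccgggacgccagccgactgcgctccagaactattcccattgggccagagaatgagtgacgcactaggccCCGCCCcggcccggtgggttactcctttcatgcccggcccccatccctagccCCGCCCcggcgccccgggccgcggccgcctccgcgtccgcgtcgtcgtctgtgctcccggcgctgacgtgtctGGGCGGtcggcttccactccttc
These letters are a description and not a binding site. AGAACA was in 3 of the 17 promoters and in 14.8% of the 35116 promoters of the table. GGGCGG was in 8 of the 17 and in 45.0% of the table, and CCGGAAGT, the core letters bound by ETS factors, in 1 of the 17 (another start of PMEPA1) and in 4.14%. TATAAA was in 1 of the 17, the first start of TRPM8, and in 11.5% of the table. The full element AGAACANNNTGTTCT, the forkhead letters TGTTTAC and the HOXB13 letters CCAATAAA were in 0 of the 17; in the table they were in 1 promoter, in 3.42% and in 0.934%. AGAACA is part of the full element, and both strands were searched for every motif. The listed regions themselves lie on hg19, whose sequence was not used here.

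Whole numbers of tags at each summit were worked out from the deposited fold and −log10 p. The caller's genome-wide background was 2.72 tags per position after GSK2879552 and 2.31 after vehicle. It stands in for depth here, since total tags per library were not known. Ratios of GSK2879552 to vehicle were divided by 1.18, the ratio of these backgrounds, and are called scaled; their size rests on that reading, and tag numbers are given unscaled. Over all chromosomes the GSK2879552 list was 15.8% shorter and 110134 regions overlapped exactly 1 region of the other list (pairs), with a scaled ratio of summed summit tags of 0.683 (exact 95% binomial interval 0.682 to 0.684). The values of the 10 loci are read beside these.

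Fewer and narrower open regions were listed in the 10 loci after GSK2879552, to a degree close to that of all chromosomes. There were 179 GSK2879552 and 214 vehicle regions, 16.4% fewer, and they covered 45.0 kb after GSK2879552 and 61.9 kb after vehicle, 27.4% less (24.9% less over all chromosomes). Covered length was lower after GSK2879552 in all 10 loci, and the number of regions was lower in 8 of them, equal at NDRG1 (18 and 18) and higher at STEAP4 (14 and 13). The loci were denser in open regions than the chromosomes as a whole, with 98.4 GSK2879552 and 118 vehicle regions per Mb against 53.7 and 63.7. Their summits were also stronger, with a median of 25 tags after GSK2879552 and 28 after vehicle, against 20 and 22 over all regions.

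Of the GSK2879552 regions of the loci, 146 of 179 overlapped a vehicle region, a share of 81.6% (exact 95% interval 75.1 to 87.0), and 33 did not; over all chromosomes 23.5% did not. Of the vehicle regions, 137 of 214 overlapped a GSK2879552 region, or 64.0% (57.2 to 70.4), and 77 did not; over all chromosomes 38.5% did not. Regions in 1 list only had a median of 14 tags in the GSK2879552 list and 16 tags in the vehicle list, below the 25 and 28 tags of all regions of the loci, although some vehicle-only regions had more than 28 tags. Vehicle-only regions outnumbered GSK2879552-only regions in 9 of the 10 loci, and at STEAP4 there were 4 GSK2879552-only and 3 vehicle-only regions. The strongest GSK2879552-only region had 25 tags and the strongest vehicle-only region 40 tags, both at ZBTB16.

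**Figure D1:**
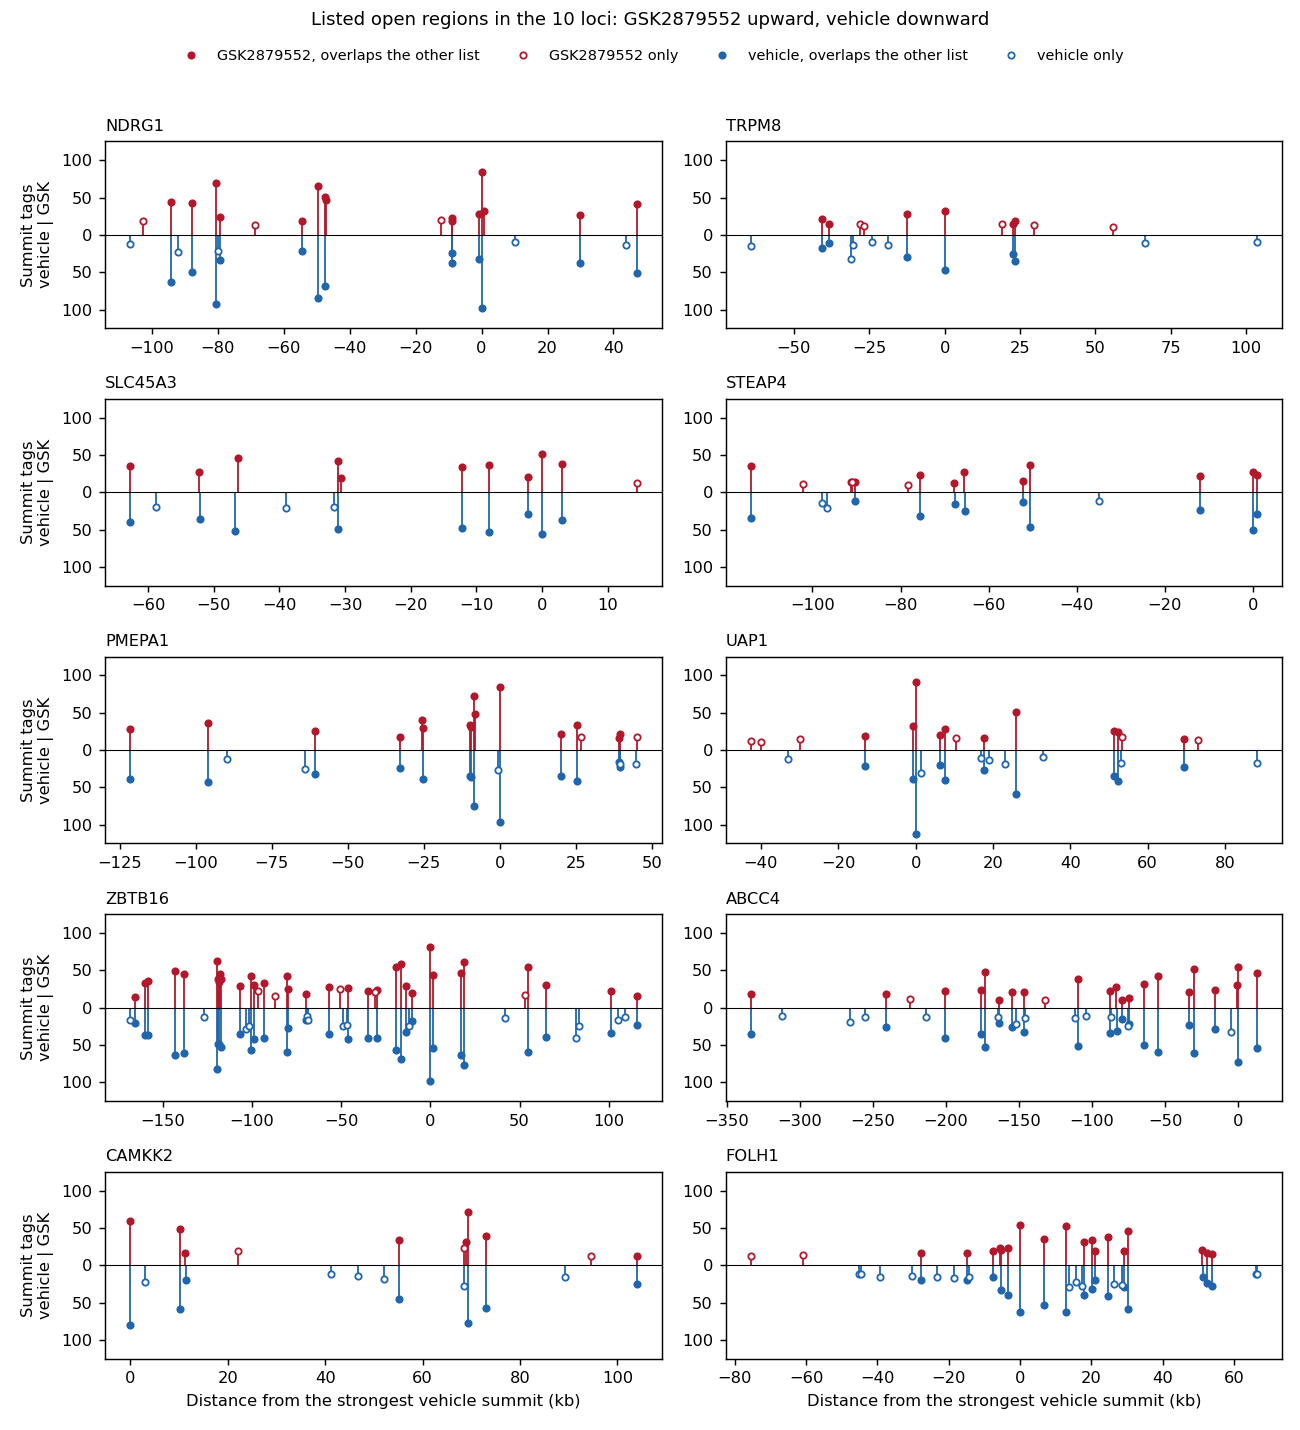
Listed regions along the 10 loci: the x axis is the distance in kb from the strongest vehicle summit of the locus, the y axis the unscaled tags at the summit, with GSK2879552 upward and vehicle downward. Filled points overlap a region of the other list and open points do not. The open points have a median of 14 tags after GSK2879552 and 16 after vehicle and reach 25 and 40 tags. The tallest stem of a locus stands at about the same place in both lists, except at CAMKK2 and STEAP4.

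Where both lists held a region, the summit carried fewer tags after GSK2879552 at all 10 loci, by about the same amount as elsewhere. The 128 pairs of the loci had 4064 tags after GSK2879552 and 5147 after vehicle, a scaled ratio of 0.672 (0.644 to 0.6999). The median scaled log2 ratio was -0.56 (interquartile range -0.75 to -0.40), and over all pairs it was also -0.56 (-0.75 to -0.36). A scaled ratio below 1 was found in 124 of the 128 pairs, against 94.2% of all pairs, and before scaling 113 of the 128 had fewer tags after GSK2879552, against 83.3%. The 4 pairs at or above 1 had at most 36 tags over both lists. A ratio below 0.5 was found in 11 of the 128 pairs, against 7.1% of all pairs. GSK2879552 regions were narrower in 105 of the 128 pairs, against 81.2% of all pairs, and paired summits lay a median of 21.5 bp apart.

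**Figure D2:**
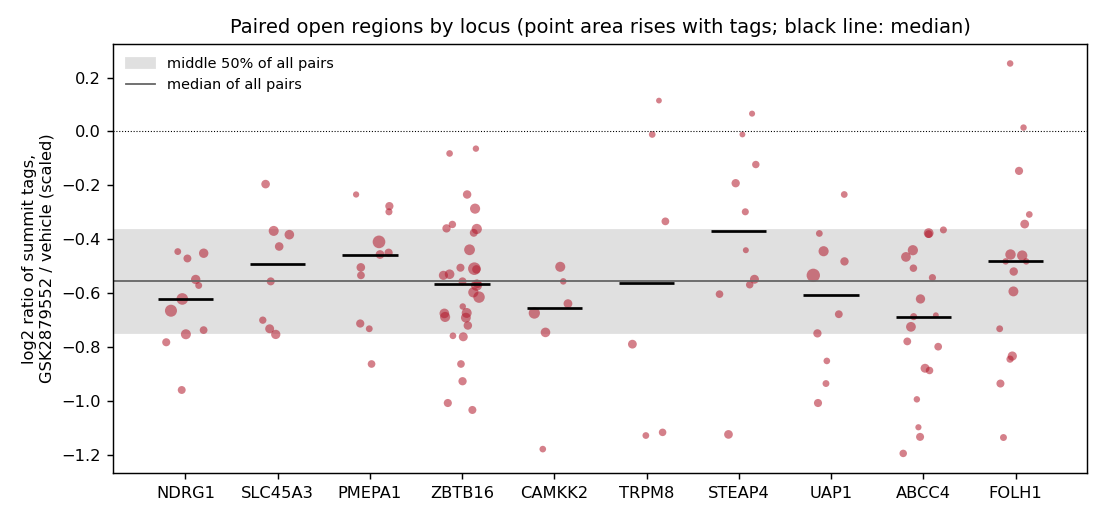
Scaled log2 ratio of summit tags, GSK2879552 over vehicle, of each of the 128 pairs by locus, with the median of the locus as a black line. The grey band holds the middle 50% of all pairs, from -0.75 to -0.36; the medians of the loci go from -0.69 at ABCC4 to -0.37 at STEAP4, and 4 points lie above 0, at TRPM8 (1), STEAP4 (1) and FOLH1 (2).

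By locus the scaled ratio of summed summit tags went from 0.628 at CAMKK2 and ABCC4 to 0.728 at STEAP4, and neighbours in this order did not differ beyond their intervals. All 10 intervals lay below 1 and all 10 included 0.683, the ratio of all pairs. Before scaling 9 of the 10 intervals lay below 1, and that of STEAP4, at 0.856 (0.717 to 1.02), did not. Among 10124 fixed tiles of 200 kb with at least 5 pairs, 2.96% had a scaled interval that left out 0.683, so 0 of 10 loci is near that share. The ratios of these tiles went from 0.594 at the 5th to 0.762 at the 95th percentile, and every locus lay between. An interval that includes 0.683 does not show that a locus was at that value: at CAMKK2 it went from 0.523 to 0.752.

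Some wide regions were listed in pieces after GSK2879552. Of the vehicle regions in the loci, 9 of 214 overlapped 2 GSK2879552 regions each, near the 3.15% of all vehicle regions, and 0 of the 179 GSK2879552 regions overlapped 2 or more vehicle regions, against 0.665%. All 9 were wide, from 551 to 1384 bp. In the loci 24 vehicle regions were 500 bp or wider and 9 of them were split. That is a larger share than the 25.5% of such regions over all chromosomes, on a small count. They lay at NDRG1 and PMEPA1 (2 each) and at SLC45A3, ZBTB16, CAMKK2, ABCC4 and FOLH1 (1 each), and at 2 of the 10 loci, NDRG1 and ABCC4, the strongest vehicle region was a split one. A split region belongs to no pair, and the scaled ratio of its strongest piece to the vehicle summit went from 0.619 at FOLH1 to 0.895 at PMEPA1, with a median of 0.729.

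Among the genes of signalling and stress response, NDRG1 encodes a cytoplasmic protein induced by hypoxia and cell differentiation, and its window was chr8 134.20 to 134.36 Mb. The summit with the most tags in both lists was in chr8:134309265-134310339, with 84 tags (exact 95% Poisson interval 67.0 to 104) after GSK2879552 and 98 (79.6 to 119) after vehicle. After GSK2879552 this 1075 bp region was listed as pieces of 834 and 126 bp. The second split region, chr8:134261599-134262629, had 51 tags in its stronger piece after GSK2879552 and 68 tags after vehicle. Over the 11 pairs there were 401 GSK2879552 and 531 vehicle tags, a ratio of 0.642 (0.563 to 0.733), and all 11 had fewer tags after GSK2879552 also before scaling. Among pairs that held 40 tags or more in sum, the lowest ratio was 0.515 (0.293 to 0.887) at chr8:134300634-134300928, with 23 and 38 tags. Its highest, at chr8:134255159-134255413, was 0.735 (0.376 to 1.42), with 19 and 22 tags.

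PMEPA1 encodes a membrane adaptor that recruits NEDD4-type ubiquitin ligases and is known to lower androgen receptor levels. In its window, chr20 56.17 to 56.34 Mb, the strongest region was chr20:56293521-56294078, with 85 tags (67.9 to 105) after GSK2879552 and 96 (77.8 to 117) after vehicle. A second strong region, chr20:56284815-56285768, had 72 tags after GSK2879552, where it was listed in pieces, and 75 tags after vehicle. The split region chr20:56268102-56268655 had 40 tags after GSK2879552 and 38 after vehicle, more before scaling and 0.895 after it (0.560 to 1.43). Over 11 pairs 350 and 417 tags gave 0.714 (0.618 to 0.825). The lowest pair was at 0.550 with 22 and 34 tags (chr20:56313205-56313790). The highest with at least 40 tags was at 0.826 with 33 and 34 tags (chr20:56283675-56283918).

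CAMKK2 encodes a calcium-dependent kinase that activates AMPK, a sensor of cellular energy. The window chr12 121.66 to 121.77 Mb held 11 GSK2879552 and 13 vehicle regions. Its strongest summit differed between the lists. After GSK2879552 it had 71 tags (55.5 to 89.6) and lay in the wide vehicle region chr12:121733948-121735181, which had 77 tags after vehicle. After vehicle it had 80 tags (63.4 to 99.6) and lay in chr12:121664950-121665439, which had 59 tags after GSK2879552. The Poisson intervals overlap, so the change of order is within counting error. All 6 pairs had fewer tags after GSK2879552 before scaling, 211 against 286 in sum, and the ratio was 0.628 (0.523 to 0.752). Among pairs with at least 40 tags the ratios went from 0.597 at chr12:121737944-121738405 (40 and 57 tags) to 0.706 at chr12:121675223-121675572 (49 and 59 tags).

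ZBTB16 encodes PLZF, a zinc finger transcription repressor, and its window, chr11 113.88 to 114.17 Mb, held the most regions, 38 after GSK2879552 and 46 after vehicle. The strongest, chr11:114049833-114050329, had 81 tags (64.3 to 101) after GSK2879552 and 98 (79.6 to 119) after vehicle. Its 31 pairs were all below 1 after scaling, with 1152 GSK2879552 and 1450 vehicle tags and a ratio of 0.676 (0.625 to 0.731), the narrowest interval of the 10 loci. The lowest pair with at least 40 tags was chr11:114014890-114015231, with 23 and 40 tags and a ratio of 0.489 (0.280 to 0.837). The highest was chr11:113891753-113891962, with 36 tags in both lists and a ratio of 0.851 (0.521 to 1.39). Here lay also the strongest region in 1 list only, chr11:114131785-114131994, with 40 vehicle tags (28.6 to 54.5) over a background of 4.96; its tags after GSK2879552 are not given by that list. The strongest GSK2879552-only region of the locus, chr11:113999288-113999428, had 25 tags over a background of 6.02.

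**Figure D3:**
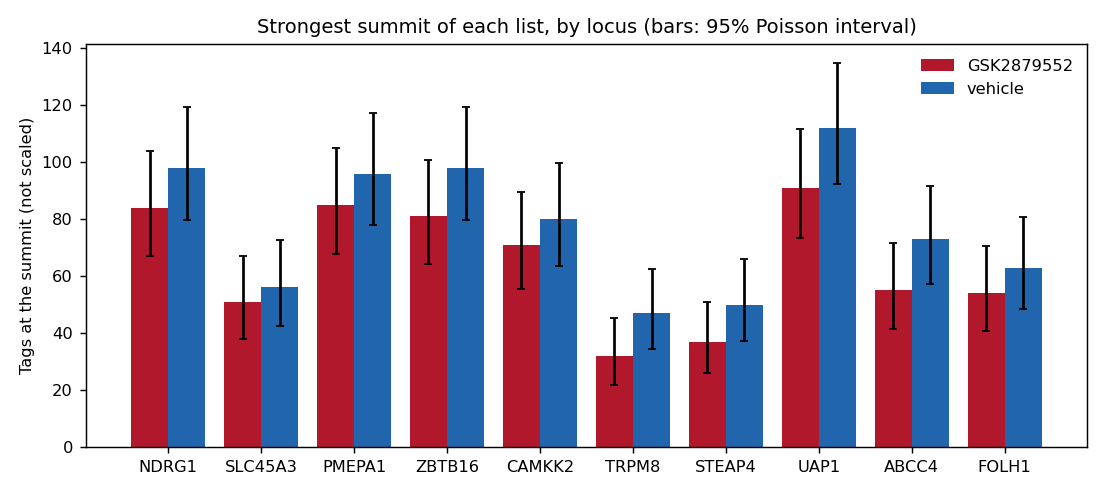
Unscaled tags at the strongest summit of each locus after GSK2879552 (left bars) and vehicle (right bars), with exact 95% Poisson intervals that cover counting error only. The GSK2879552 bar is the lower one at all 10 loci, from 32 against 47 tags at TRPM8 to 91 against 112 tags at UAP1, while the intervals of each locus overlap; at CAMKK2 and STEAP4 the bars stand for different regions.

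Among the genes of membrane proteins, TRPM8 encodes a cation channel opened by cold and menthol. Its window, chr2 234.78 to 234.97 Mb, was the least covered one, with 1.004% of its length in GSK2879552 regions and 1.48% in vehicle regions, and no summit reached 50 tags in either list. The strongest region, chr2:234862115-234862404, had 32 tags (21.9 to 45.2) after GSK2879552 and 47 (34.5 to 62.5) after vehicle. A partner was found for 6 of 11 GSK2879552 regions, 54.5% (23.4 to 83.3), against 76.5% over all chromosomes. Of the vehicle regions 6 of 13 had a partner, 46.2% (19.2 to 74.9), against 61.5%. Both intervals include the share of all chromosomes. The 6 pairs had 128 and 167 tags, a ratio of 0.652 (0.514 to 0.826). Of these 6 pairs 2 were below 0.5, on a small count, against 7.1% of all pairs. The first of these, chr2:234884864-234885032, had 14 and 26 tags, a ratio of 0.458 (0.221 to 0.910), and the second, chr2:234885403-234885603, had 19 and 35 tags. The highest pair with at least 40 tags, chr2:234849530-234850076, had 28 and 30 tags and a ratio of 0.794. The vehicle-only region chr2:234831241-234831416 had 33 tags (22.7 to 46.3) over a background of 2.66, the strongest of the locus without a partner.

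STEAP4 encodes a metalloreductase that reduces iron and copper. The window chr7 87.86 to 87.99 Mb stood at the genome-wide background, which 13 of 14 GSK2879552 and 11 of 13 vehicle regions had. Its strongest summit also differed between the lists. After GSK2879552 it was in chr7:87935978-87936354 with 37 tags (26.1 to 51.0), where vehicle had 46. After vehicle it was in chr7:87986683-87986897 with 50 tags (37.1 to 65.9), where GSK2879552 had 27. That last region had the lowest ratio of the locus, 0.459 (0.277 to 0.748). Summed over its 10 pairs, 238 and 278 tags gave 0.728 (0.610 to 0.869), the highest of the loci. The highest pair with at least 40 tags was chr7:87921161-87921626, with 27 and 25 tags and a ratio of 0.919 (0.513 to 1.65).

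SLC45A3 encodes prostein, a prostate-restricted membrane protein whose promoter is a known fusion partner of ETS genes. Its window, chr1 205.61 to 205.70 Mb, held 11 GSK2879552 and 12 vehicle regions. The strongest, chr1:205680300-205680499, had 51 tags (38.0 to 67.1) after GSK2879552 and 56 (42.3 to 72.7) after vehicle. The 8 pairs had 290 and 349 tags, a ratio of 0.707 (0.603 to 0.828). Among them chr1:205672269-205672526 was lowest, at 0.594 with 37 and 53 tags, and chr1:205683441-205683609 highest, at 0.874 with 38 and 37 tags. The split region chr1:205648911-205649953 had 42 tags in its stronger piece after GSK2879552 and 49 after vehicle.

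ABCC4 encodes MRP4, an efflux pump for cyclic nucleotides and other anions. Its window, chr13 95.62 to 96.00 Mb, is the longest, with 23 GSK2879552 and 32 vehicle regions. Here 21 of the 23 GSK2879552 regions had a vehicle partner, against 76.5% over all chromosomes. Of the 32 vehicle regions 12 had no GSK2879552 partner, near the 38.5% of all chromosomes. The strongest, chr13:95952856-95954239, had 55 tags (41.4 to 71.6) after GSK2879552, as the larger of 2 pieces, and 73 (57.2 to 91.8) after vehicle. All 19 pairs had fewer tags after GSK2879552 before scaling, with 515 against 697 in sum and a ratio of 0.628 (0.560 to 0.705). Of the 19 pairs 3 were below 0.5, against 7.1% of all pairs. The lowest, chr13:95619918-95620205, with its start just outside and its summit just inside the window, had 18 and 35 tags and a ratio of 0.437 (0.233 to 0.794). At chr13:95920379-95920549 the highest had 21 and 23 tags and a ratio of 0.777. The vehicle-only region chr13:95948940-95949054 had 32 tags over a background of 7.60.

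UAP1 encodes the enzyme that makes UDP-GlcNAc, the sugar donor of protein glycosylation. The strongest summit of all 10 loci lay in its window, chr1 162.48 to 162.62 Mb, in the region chr1:162530778-162532056, with 91 tags (73.3 to 112) after GSK2879552 and 112 (92.2 to 135) after vehicle. It stayed in 1 piece, 1152 bp wide after GSK2879552 and 1279 bp after vehicle, and its ratio was 0.691 (0.518 to 0.920). The 10 pairs had 321 and 414 tags, a ratio of 0.660 (0.568 to 0.765). The lowest, chr1:162583573-162583844, had 24 and 41 tags (0.498), and the highest with at least 40 tags, chr1:162537556-162537712, had 20 tags in both lists (0.851). Beside the strongest region the vehicle list held chr1:162532486-162532587, with 30 tags over a background of 10.63 and no GSK2879552 partner.

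FOLH1 encodes PSMA, a surface carboxypeptidase used as a target for imaging prostate cancer. A near copy of the gene is known elsewhere on chromosome 11, so reads of this locus could be placed at either copy, and the sources used here do not give the mapping filters. In its window, chr11 49.12 to 49.28 Mb, 20 regions were listed after GSK2879552 and 31 after vehicle, the largest gap of the 10 loci in proportion. Of the 31 vehicle regions 14 had no partner, against 38.5% over all chromosomes. The strongest, chr11:49199440-49199874, had 54 tags (40.6 to 70.5) after GSK2879552 and 63 (48.4 to 80.6) after vehicle. At the 16 pairs 458 and 558 tags gave 0.698 (0.616 to 0.791). The lowest, chr11:49253375-49253663, had 15 and 28 tags (0.456), and the highest with at least 40 tags, chr11:49219894-49220017, had 34 and 32 tags (0.904). The strongest vehicle-only region, chr11:49213356-49213514, had 29 tags over a background of 7.20.

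The surroundings of the regions differed more between loci than the summits did. Above its lowest value the caller's background is the number of tags in about 10 kb around the summit, in steps of 0.01 per tag, so it gives a broad readout beside the summit; these tags include those of the region itself. It was used where both lists were above their lowest value by more than a small margin. This held for 105 of the 128 pairs and 66347 of all pairs. The margin left out pairs just above the lowest value, such as chr2:234849530-234850076 at TRPM8 and chr7:87936102-87936397 at STEAP4. Taken over 58 spans that do not overlap, the 10 loci had 29930 tags after GSK2879552 and 30043 after vehicle, a scaled ratio of 0.847 (0.834 to 0.861), against 0.885 (0.884 to 0.885) over all 40111 such spans. Before scaling these ratios were 0.996 in the loci and 1.04 over all spans. The loci as a whole were thus near 1 before scaling, and over all spans the direction depends on the scaling. Among pairs, 93 of 105 had a scaled ratio of 10 kb tags below 1, against 76.4% of all pairs, and 58 of 105 had fewer tags after GSK2879552 before scaling, against 39.1%. These comparisons with all spans and all pairs were not matched by tags per span, on which the ratio depends. Regions of the loci had a median background of 4.43 after GSK2879552 and 4.045 after vehicle, against 3.12 and 2.64 over all regions. The gaps therefore do not set the loci apart from equally dense places. Pairs whose spans overlap also count some tags more than once. The measure was chosen after the values were seen, and spans are not replicates.

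FOLH1 and UAP1 had the lowest ratios of the surroundings. At FOLH1 6 spans had 2769 tags after GSK2879552 and 3452 after vehicle, a scaled ratio of 0.682 (0.649 to 0.717). At UAP1 3 spans had 1594 and 1874 tags, a ratio of 0.723 (0.676 to 0.774). Before scaling FOLH1 was at 0.802, UAP1 at 0.851, CAMKK2 at 0.967 and ABCC4 at 0.984, and the other 6 loci were above 1, from 1.001 at ZBTB16 to 1.14 at STEAP4. The scaling divides all loci by the same number, so it leaves their order as it is. On the scaled ratios CAMKK2 (0.823), ABCC4 (0.837) and ZBTB16 (0.852) followed, with intervals below 0.885. TRPM8 (0.914, 2 spans), PMEPA1 (0.923), NDRG1 (0.945), SLC45A3 (0.968) and STEAP4 (0.970, 1 span) were higher. Of these last 5, the interval of TRPM8, PMEPA1 and STEAP4 included 0.885. That of NDRG1 (0.898 to 0.994) and SLC45A3 (0.909 to 1.03) lay above it. The TRPM8 value leaves out chr2:234849530-234850076, too close to the lowest value to be used. That region had 272 GSK2879552 and 316 vehicle tags in 10 kb, so the place of TRPM8 in this order is not settled. The median ratio over pairs was 0.666 at FOLH1 and 0.716 at UAP1. Of 5626 tiles of 200 kb with at least 5 such pairs, 0.924% had a lower median than FOLH1 and 3.11% a lower one than UAP1. At CAMKK2 the median over pairs was 0.903, above the 0.892 of all pairs, and 52.8% of these tiles were lower. Its pair with the most vehicle tags around it, chr12:121737944-121738405, had 982 and 1223 tags, a ratio of 0.683. The other CAMKK2 pairs had ratios from 0.844 to 1.02.

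**Figure D4:**
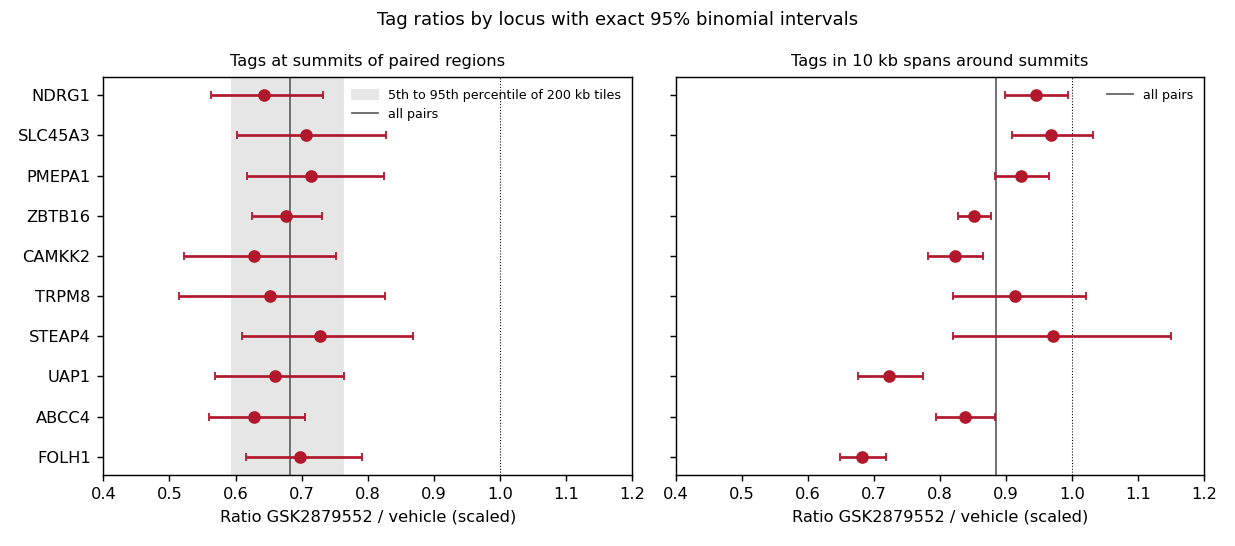
Scaled ratio of GSK2879552 to vehicle tags by locus, at the summits of pairs (left) and in 10 kb spans around summits that do not overlap (right), with exact 95% binomial intervals. The grey line is the ratio of all pairs, 0.683 at summits and 0.885 in 10 kb; the loci lie together at summits, while in 10 kb FOLH1 at 0.682 and UAP1 at 0.723 stand below the other 8.

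Within FOLH1 the low surroundings formed 1 stretch. From 49184765 to 49230307 on chromosome 11, all 12 pairs had a 10 kb ratio between 0.605 and 0.702. At the pair with the most vehicle tags around it, chr11:49217462-49217852, there were 590 tags after GSK2879552 and 815 after vehicle. Beyond a gap of 20796 bp between summits, the 3 pairs from 49250839 to 49253663 had ratios from 0.948 to 0.989, for example 307 tags after GSK2879552 and 264 after vehicle. Over 5 spans the stretch had 2462 and 3188 tags, a ratio of 0.657 (0.623 to 0.693), and its summits had 389 and 472 tags, a ratio of 0.701 (0.611 to 0.803). The 3 pairs beyond the gap had 53 and 67 summit tags, a ratio of 0.673 (0.460 to 0.979). Beyond the gap the 3 pairs share 1 span, with a ratio of 0.989 (0.836 to 1.17), so their ratios count largely the same tags. The intervals of the surroundings, which cover counting error only, lay apart between the 2 parts, while those of the summit ratios overlap. The parts also differ in tags per span, on which the ratio depends, as described below. This division was made after the values were seen. The part of the near copy of the gene in it was not tested.

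Among pairs that have one, ratios of the surroundings depend on how many tags a 10 kb span holds. Pairs at the lowest value of either list have no such ratio, which bears most on the lowest level of tags. At FOLH1 chr11:49171887-49172169, with 345 vehicle tags in 10 kb, is a pair left out in this way. Over all pairs the median ratio was 0.938 below 400 tags (the mean of vehicle and scaled GSK2879552 tags), 0.881 from 400 to 600, 0.813 from 600 to 800 and 0.786 from 800 on. The 7 FOLH1 pairs from 400 to 600 tags had a median of 0.652, where 2.06% of all pairs at that level were lower, and its 4 pairs from 600 to 800 tags had a median of 0.614, where 0.529% were lower. Its other 4 pairs, below 400 tags, had a median of 0.953 and include the 3 beyond the gap. The 5 UAP1 pairs below 400 tags had a median of 0.740, where 5.64% were lower, and its 2 pairs around the strongest region 0.6997, where 13.5% were lower. At ZBTB16 the medians by level, from low to high, were 0.956, 0.888, 0.780 and 0.752 (6, 11, 9 and 4 pairs), near those of all pairs. At NDRG1 they were 0.957, 1.02, 0.844 and 0.790 (2, 6, 1 and 2 pairs). At PMEPA1 they were 0.983, 0.944, 0.958 and 0.790 (4, 3, 2 and 2 pairs). Each of these was above that of all pairs, though at the top level only by 0.790 against 0.786. The 2 PMEPA1 pairs of the top level count largely the same tags. At ABCC4 the medians were 0.825 below 400 tags (8 pairs) and 0.794 from 400 to 600 (5 pairs), both lower than those of all pairs. SLC45A3 and CAMKK2 lay above all pairs at some levels and below at others. At like levels the loci thus went both ways, on few pairs per level.

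**Figure D5:**
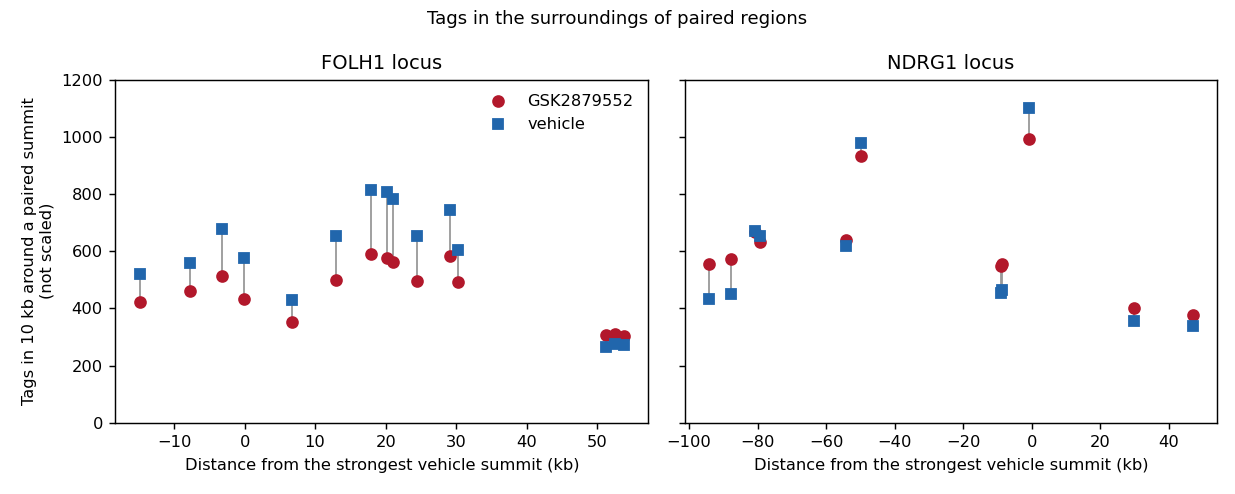
Unscaled tags in 10 kb around the paired regions of FOLH1 (left) and NDRG1 (right) against the distance in kb from the strongest vehicle summit, after GSK2879552 (circles) and vehicle (squares). At FOLH1 the circles lie below the squares at 12 neighbouring pairs and just above them at the 3 pairs farther right; at NDRG1, whose ratio was 0.945, circles lie on both sides of the squares.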

How the data were processed

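ATAC-seq of LNCaP cells was compared between GSK2879552 and vehicle, with 1 peak list per condition for its 2 lanes. Per the submitters' processing notes, BWA 0.7.2, SAMtools 0.1.18 and MACS2 2.1.2 were used, and hg19 and GRCh37 are both listed as builds. For trimming, mapping filters, duplicates and read shifts no setting is given in the sources used here. The deposited lists give per region a score, a fold, which is the ratio of summit tags to background with 1 added to each, a −log10 p and q, and the summit. Total tags per library are unknown, and the caller's genome-wide background stood in for depth.

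Whole summit tags were recovered from fold and −log10 p; they matched within 0.001 in 100% of the rows of both lists, and in 100% of 5000 simulated regions. No summit passed 199 tags. If 1 tag of 100 bp was kept per position and strand, which was assumed here and is not stated, the limit is 200. The highest summits may then be compressed. In the 10 loci the highest summit had 112 tags. Chromosomes 1 to 22, X and Y were used, and overlap was 1 bp. Intervals are exact at 95% (Clopper-Pearson for shares, binomial for ratios, Poisson for tags). All regions of the 10 loci were used. Those named are, per locus, the strongest of each list and the lowest and highest ratio among pairs with at least 40 tags. The strongest vehicle-only region is named at ZBTB16, TRPM8, ABCC4, UAP1 and FOLH1 and not at the other loci. The strongest GSK2879552-only region is named at ZBTB16 alone. Others were named after their values were seen. Members, windows and methods were chosen with earlier results of these data known. Python 3.11.15, NumPy 2.4.6, pandas 2.3.3, SciPy 1.17.1 and matplotlib 3.10.9 were used.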

Additional observations from a re-analysis of the deposited data

How the results depend on the processing

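No paired analysis was possible because each condition had 1 library, and no replicate could be left out. For the values that moved the cause was not tested. Without scaling for depth the ratio of summit tags of the 10 loci, 0.672, was 0.790 and the median log2 ratio, -0.56, was -0.32, and 9 of 10 loci, all but STEAP4 (0.856), kept an interval below 1. Under the other alternatives run the ratio stayed between 0.649 and 0.681, and all 10 intervals lay below 1 where they were counted (not with widened windows or a locus left out). Leaving out each locus in turn gave 0.668 to 0.678. Joining split regions to their strongest piece, an alternative added after the data were seen, gave 0.677. The share of GSK2879552 regions with a partner, 81.6% (76.5% over all chromosomes), was 69.8% (62.8%) with a reciprocal overlap of 50% and 94.6% (92.7%) among regions of both lists whose −log10 q reached 5. The share of vehicle regions, 64.0% (61.5%), was 72.8% (69.3%) with lists of equal length and 73.7% (63.2%) at that limit on −log10 q, where the gap to all chromosomes was widest. Windows widened by 50 kb held 269 GSK2879552 regions, in place of 179, since they are longer. Without scaling, the ratio of tags in 10 kb turned above 1 at NDRG1 (1.11), SLC45A3 (1.14), PMEPA1 (1.09), ZBTB16 (1.001), TRPM8 (1.07) and STEAP4 (1.14). With the background subtracted from each region's tags the ratio was 0.649. What depth limits was not tested; no listed summit had under 9 tags after GSK2879552 or under 8 after vehicle.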
